A study of Mus musculus with 30 samples.

Results

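Cells of the mHypoA-2/12 line that had been given 0.75 µM of cannabidiol (CBD) for 6 h were compared here with cells given the vehicle for the same time. The groups compared hold 6 of the 30 libraries of the study. The 3 whose treatment label is CBD0.75_6h were named A10, A11 and A12 by the authors. The 3 whose label is CTR_6h were named A1, A2 and A3. The whole study spans 10 groups of 3 libraries, made of vehicle and 4 CBD doses, each at 6 and 24 h. The other doses were 3 µM, 1.5 µM and 0.325 µM. All cells were of 1 clonal line from the adult mouse hypothalamus, immortalized with a temperature-sensitive SV40 large T antigen, and both groups compared here were in DMEM with GlutaMAX and with DMSO, the solvent of CBD. The libraries hold reads from the 3′ ends of polyadenylated transcripts (QuantSeq 3′ mRNA-Seq), which gives about 1 read per transcript molecule sampled and no view of the rest of the transcript. The tests of genes at 6 h estimated the spread from all 15 libraries of that time, those of the other doses included. The labels do not say whether the 3 libraries of a group came from separate cultures. The p-values thus measure the spread between libraries of a group, which may be technical.

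CBD is a major cannabinoid of hemp that does not intoxicate and binds many receptors, channels and enzymes with moderate affinity. Within hours, a change in what reaches a cell is typically seen first in immediate-early genes, whose products (the Fos, Jun, Egr and Nr4a transcription factors) form AP-1 and related regulators and whose mRNAs are short-lived. The integrated stress response is the pathway in which kinases phosphorylate the translation factor eIF2alpha and the factor Atf4 induces amino acid transporters and synthetases, with Ppp1r15a closing the loop by guiding a phosphatase back to eIF2alpha. Matrix metalloproteinases cut collagens and other matrix proteins, many of their genes lie side by side in the genome and carry AP-1 sites, and Timp proteins inhibit them.

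Reads counted on genes numbered 1839621, 1919498 and 3574833 in the vehicle libraries A1, A2 and A3 and 2715507, 2696044 and 3274523 in A10, A11 and A12. Between the groups, the number of reads (exact permutation test, two-sided, p = 0.6), the share of uniquely mapped reads outside genes (p = 0.9), the ambiguous share (p = 1), the mitochondrial share (p = 1) and the number of genes detected (p = 0.2) passed no test, in a design whose smallest p is 0.1. Library A3 lay apart from the other vehicle libraries: the chi-square per gene was 11.6 between A1 and A3 and 10.4 between A2 and A3, against 2.16 between A1 and A2. Its share of reads outside genes was 17.9%, against 21.4% and 20.8%. Among the CBD libraries the pairs with A12 had 6.64 and 6.42, against 3.21 for A10 and A11. Of the 19 neuronal markers, 16 had reads in the 6 libraries and 8 passed the filter on low counts, with a summed level of 189 to 243 CPM (reads per 1e+06 reads of the library, with its size normalized by TMM). The neurofilament gene Nefm was at 63.6 CPM in vehicle and 47.2 CPM with CBD, Tubb3 at 49.0 and 38.1 CPM, Eno2 at 36.3 and 34.4 CPM and Map2 at 13.6 and 22.96 CPM. Dcx, Slc32a1 and Gad1 had no read, and the synaptic gene Snap25 had 2 reads in all. The 11 mesenchymal markers summed to 5307 to 7598 CPM, with Col1a1 at 2138 and 2079 CPM. Their levels were uneven. Acta2 was at 1865 CPM and Col1a2 at 1406 CPM in vehicle. Low members in vehicle were Pdgfra (24.38 CPM), Dcn (10.97 CPM), Fap (1.985 CPM) and Lum (1.813 CPM). Col3a1, Pdgfrb, Thy1 and Tagln lay between. The general neuronal markers Rbfox3, Elavl3 and Elavl4 had 12, 8 and 1 reads in all, and the excitatory marker Slc17a6 had 16. Cytoskeletal neuronal markers were thus present. Those of synapses and of inhibitory and excitatory transmission, and these general neuronal markers, were at or near 0. Markers of other cell types were mixed. The 6 neural progenitor markers summed to 2346 to 3536 CPM. In vehicle, Vim was at 2736 CPM, Nes at 112 CPM, Sox2 at 12.9 CPM and Pax6 at 6.64 CPM. Msi1 had 17 reads in all and Prom1 had none. Of 7 astrocyte markers, 2 (Gfap and Aqp4) had no read, while Gja1 was at 53.6 CPM and Slc1a2 at 36.0 CPM in vehicle. Of 8 oligodendrocyte markers, 5 had no read and Cnp was at 13.02 CPM. Of 8 microglial markers, 4 (Aif1, P2ry12, Itgam and C1qa) had no read, while Tmem119 was at 184 CPM, Cx3cr1 at 24.4 CPM and Csf1r at 13.5 CPM. The 7 endothelial markers summed to 0.932 to 3.30 CPM.

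The question of the comparison was which transcripts differ after 6 h at this dose. In CBD-treated cells the metalloproteinases Mmp3 and Mmp13, the matrix protein Mgp and the mitotic motor Cenpe rose, and the AP-1 subunit Fosb, the stress phosphatase subunit Ppp1r15a, the carbonic anhydrase Car6, the Notch effector Hes1 and the 7SK RNA (Rn7sk) fell. These 9 genes were 0.0749% of the 12012 genes tested (4 or 0.0333% higher and 5 or 0.0416% lower). They were called by edgeR's quasi-likelihood test on the 15 libraries of 6 h, with Benjamini-Hochberg adjustment and a false discovery rate (FDR) below 0.1. With only the groups compared in the fit, fewer genes passed, as given further below. A further view with no adjustment had 936 genes (7.79%) at p below 0.05, of which 515 (4.29%) were higher and 421 (3.5%) lower. The 3 CBD libraries lay on the same side of the 3 vehicle libraries at 1406 genes (11.7%), 791 (6.59%) of them higher and 615 (5.12%) lower. With 3 against 3 libraries and no difference at any gene, a share of about 0.1 would lie so. The median log2 fold change over all genes tested was −0.02, and the common biological coefficient of variation was 0.179. In bulk RNA, fewer cells that express a gene and less of its RNA per cell cannot be told apart.

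**Figure D1:**
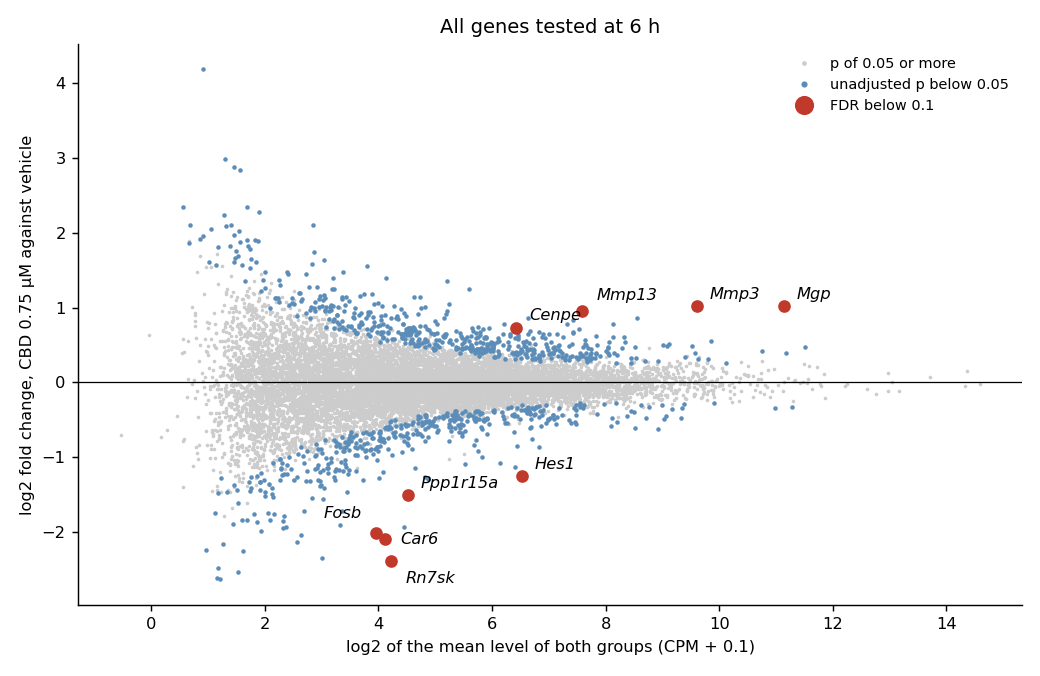
Each point is 1 of the 12012 genes tested; the x axis is the log2 of the mean level of both groups (CPM + 0.1) and the y axis the log2 fold change of CBD 0.75 µM against vehicle at 6 h. The 9 genes past the FDR threshold are named, with Mmp3 and Mgp among the abundant genes and Fosb, Car6 and Rn7sk between 5.82 and 31.3 CPM in the group means.

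Mmp3 (ENSMUSG00000043613, chromosome 9) encodes stromelysin, a protease of proteoglycans and other matrix proteins that also activates other proteases of its family. It was at 454, 513 and 579 CPM in the vehicle libraries A1, A2 and A3 and at 1039, 1027 and 1069 CPM in A10, A11 and A12. The groups were far apart, and the CBD libraries differed less among themselves than the vehicle libraries. Its log2 fold change was 1.02 (SE 0.15, FDR = 0.00427 by edgeR's quasi-likelihood test), and it was called under all 13 alternatives of the analysis. Mmp13 (ENSMUSG00000050578, chromosome 9), a collagenase, was at 97.5, 99.2 and 192 CPM in vehicle and at 224, 239 and 300.0 CPM with CBD. Here A3 lay near the CBD libraries without overlapping them, and the log2 fold change was 0.95 (SE 0.20, edgeR FDR = 0.0921). Without A3 it was 1.37 (edgeR FDR = 3.49e-05), and without A12 it was 0.82 and no longer called (edgeR FDR = 0.583), so that Mmp13 was called under 6 of the 13 alternatives.

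Both genes lie in the metalloproteinase cluster of chromosome 9, and Mmp10, another stromelysin of that cluster, was at 9.36, 7.39 and 9.88 CPM in vehicle and 31.8, 17 and 13 CPM with CBD. The groups of Mmp10 did not overlap, and its edgeR FDR was 0.357. The 200 bases before the annotated start of Mmp3 and Mmp13 are shown because these genes rose together (RefSeq, GRCm38.p6, read in the direction of the gene). Capitals mark an AP-1 site, searched as TGANTCA on both strands.
Mmp3 promoter (chr9:7445622-7445821, plus strand): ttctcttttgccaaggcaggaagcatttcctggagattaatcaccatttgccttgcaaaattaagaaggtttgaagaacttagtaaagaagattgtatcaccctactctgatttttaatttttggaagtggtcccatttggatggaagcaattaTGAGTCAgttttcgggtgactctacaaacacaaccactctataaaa
Mmp13 promoter (chr9:7272314-7272513, plus strand): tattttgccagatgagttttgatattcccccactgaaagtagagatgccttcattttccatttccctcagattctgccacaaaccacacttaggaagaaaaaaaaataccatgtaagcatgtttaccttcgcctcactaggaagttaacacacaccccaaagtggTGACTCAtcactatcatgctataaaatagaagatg
Each of these windows holds 1 such site, and so does that of Mmp10, while 1800 of the 32851 promoters of the table (5.48%) hold one in the same window. The last base of the site lies 40 bases before the start of Mmp3, 29 before that of Mmp13 and 57 before that of Mmp10. All 3 windows also hold a TATA box (TATAAA, either strand), as do 9.96% of all promoters. Its last base lies 2 bases before the annotated start of Mmp3, 11 before that of Mmp13 and 24 before that of Mmp10. All these distances are counted from the annotated start, which was not checked against the reads. Mmp10 was added as a neighbour and was not called, and the other genes of the cluster were not looked at singly. A match is a description of the letters and not of binding, and a link to the rise was not tested.

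Mgp (ENSMUSG00000030218, chromosome 6) encodes matrix Gla protein, a secreted inhibitor of calcification. It was at 1485, 1439 and 1524 CPM in vehicle and at 2216, 2460.0 and 4354 CPM with CBD. The vehicle libraries were close together, and A12 stood well above the other CBD libraries. The log2 fold change was 1.02 (SE 0.19, edgeR FDR = 0.0338), and without A12 it was 0.66 and no longer called (edgeR FDR = 0.563). Cenpe (ENSMUSG00000045328, chromosome 3), a kinesin that links chromosomes to spindle microtubules, was at 65.5, 64.4 and 64.3 CPM in vehicle and at 119.6, 100.3 and 102 CPM with CBD. The vehicle libraries hardly differed, and every CBD library was higher. Its log2 fold change was 0.73 (SE 0.15, edgeR FDR = 0.0903).

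**Figure D2:**
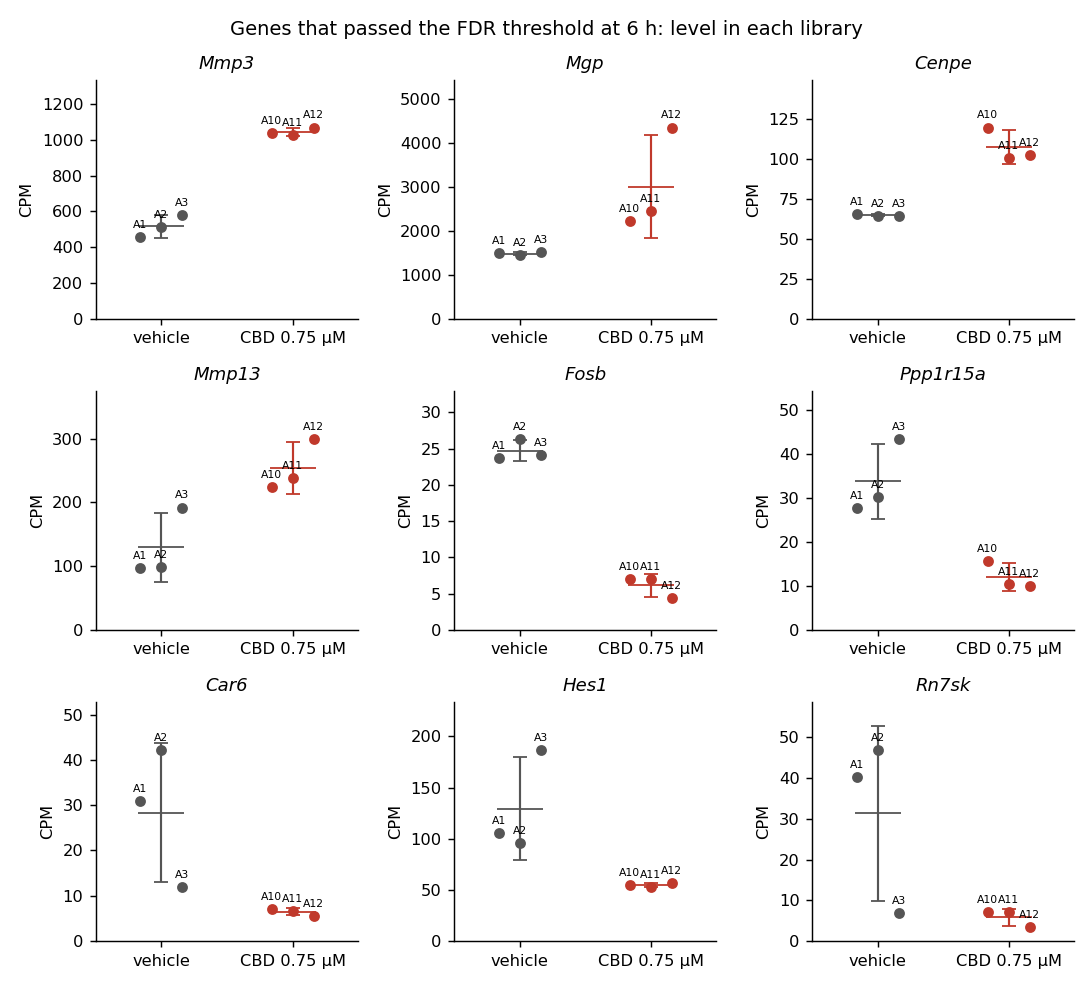
Level in CPM (y axis, from 0) of the 9 genes past the FDR threshold in each vehicle library (grey) and CBD 0.75 µM library (red), with the group mean as a bar and the SD as whiskers (n = 3). The groups are apart at 8 genes, and at Rn7sk vehicle library A3 lies among the CBD libraries.

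Fosb (ENSMUSG00000003545, chromosome 7), an immediate-early subunit of AP-1, was at 23.7, 26.4 and 24.2 CPM in vehicle and at 7.03, 7.01 and 4.35 CPM with CBD. These are 43, 50 and 88 reads against 19, 19 and 14 reads, and no vehicle library came near a CBD library. The log2 fold change was −2.02 (SE 0.34, edgeR FDR = 0.0213). Ppp1r15a (ENSMUSG00000040435, chromosome 7) was at 27.5, 30.1 and 43.4 CPM in vehicle and at 15.6, 10.3 and 9.94 CPM with CBD. The lowest vehicle library was above the highest CBD library, and the log2 fold change was −1.52 (SE 0.28, edgeR FDR = 0.0338). Hes1 (ENSMUSG00000022528, chromosome 16), a repressor induced by Notch signalling, was at 105, 95.5 and 187 CPM in vehicle and at 54.4, 52.4 and 56.8 CPM with CBD. The CBD libraries were nearly equal, and A3 held the highest level. The log2 fold change of Hes1 was −1.26 (SE 0.26, edgeR FDR = 0.0903), and without A3 it was −0.88 (edgeR FDR = 0.0837).

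Car6 (ENSMUSG00000028972, chromosome 4), which encodes a secreted carbonic anhydrase, was at 30.8, 42.2 and 11.8 CPM in vehicle and at 7.03, 6.64 and 5.59 CPM with CBD. The vehicle libraries spread widely, with A3 the lowest and still above the CBD libraries. The log2 fold change was −2.10 (SE 0.43, edgeR FDR = 0.0903). Rn7sk (ENSMUSG00002076161, named by the study), the 7SK RNA that holds the elongation factor P-TEFb inactive, was at 40.2, 47.0 and 6.87 CPM in vehicle and at 7.03, 7.01 and 3.42 CPM with CBD. Library A3 lay within the range of the CBD libraries, so that the fall (log2 fold change −2.40, SE 0.50, edgeR FDR = 0.0903) rests on A1 and A2. 7SK RNA is made by RNA polymerase III and carries no poly(A) tail, and its reads in a library primed on poly(A) were 73, 89 and 25 against 19, 19 and 11. Of the other members of the P-TEFb list, Larp7, which binds and protects 7SK RNA, had a log2 fold change of 0.42 (SE 0.17, edgeR FDR = 0.561).

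The promoters of Fosb and Ppp1r15a are shown because these were the called genes that fell with the smallest p, and that of Cenpe because it holds the same element as Ppp1r15a. Capitals mark a cAMP response element, searched as TGACGTCA on both strands, letters that hold no TGANTCA.
Fosb promoter (chr7:19310046-19310245, minus strand): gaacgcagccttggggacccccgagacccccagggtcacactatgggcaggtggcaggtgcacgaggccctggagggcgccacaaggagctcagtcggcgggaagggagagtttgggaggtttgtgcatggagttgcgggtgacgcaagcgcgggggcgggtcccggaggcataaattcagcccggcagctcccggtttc
Ppp1r15a promoter (chr7:45526269-45526468, minus strand): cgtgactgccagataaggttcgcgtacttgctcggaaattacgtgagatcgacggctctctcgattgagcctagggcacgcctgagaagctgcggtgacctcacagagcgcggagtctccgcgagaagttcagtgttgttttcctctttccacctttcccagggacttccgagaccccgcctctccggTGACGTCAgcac
Cenpe promoter (chr3:135212363-135212562, plus strand): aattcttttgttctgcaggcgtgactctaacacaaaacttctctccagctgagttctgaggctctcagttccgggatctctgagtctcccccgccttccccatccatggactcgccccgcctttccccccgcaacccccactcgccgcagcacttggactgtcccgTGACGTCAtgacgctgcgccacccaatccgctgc
The element is found once in the window of Ppp1r15a, with its last base 5 bases before the annotated start, and once in that of Cenpe, 27 bases before the start. Over all 32851 promoters, 483 (1.47%) hold it. Ppp1r15a fell and Cenpe rose. The windows of Fosb and Car6 hold neither of the 2 elements. Of the 9 called genes, 6 matched the promoter table.

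The genes with the smallest p after these 9, among those whose groups did not overlap, passed no FDR threshold by edgeR, and their values are given without a call. On the higher side were Zfp52, a zinc finger protein (7.08 CPM in vehicle and 20.6 CPM with CBD, log2 fold change 1.55, SE 0.34), Dio2, the deiodinase that activates thyroid hormone (267 and 484 CPM, 0.86, SE 0.19), and Tnc, the matrix protein tenascin C (221 and 338 CPM, 0.61, SE 0.14). Dio2 was at 337, 237 and 226 CPM in vehicle and at 394, 465 and 592 CPM with CBD, and its edgeR FDR was 0.133. Timp1, an inhibitor of metalloproteinases, was at 701, 729.7 and 812 CPM in vehicle and at 982, 1202 and 1099 CPM with CBD (log2 fold change 0.55, SE 0.13, edgeR FDR = 0.159). The host transcripts of microRNA clusters Mir100hg (log2 fold change 0.78, SE 0.18) and Mir99ahg (0.83, SE 0.20), the transcription factor Maf (0.65, SE 0.16), the signalling inhibitor Rgs2 (0.72, SE 0.18), the splicing-associated cyclophilin Ppig (0.66, SE 0.16), ceruloplasmin (Cp, 0.72, SE 0.18) and methylmalonyl-CoA mutase (Mut, 1.02, SE 0.25) had FDRs of 0.149 to 0.159. Pfkfb4, a regulator of glycolysis, was at 3.90 CPM in vehicle and 12.5 CPM with CBD (log2 fold change 1.63, SE 0.37, edgeR FDR = 0.146). Gm13436 (2.63 and 11.7 CPM), A630089N07Rik (9.43 and 25.6 CPM) and Rex1bd (21.3 and 52.3 CPM) completed the higher side together with Il1rapl1, which was at 0.551 CPM in A1, had no read in A2 and A3, and was at 2.59, 4.42 and 3.11 CPM with CBD.

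On the lower side of the same ranking were Sqstm1, Nr4a1, Dpysl2 and Ppp2cb. Sqstm1, the autophagy receptor p62 and a target of NRF2, was at 577, 693 and 502 CPM in vehicle and at 455, 382 and 309 CPM with CBD (log2 fold change −0.63, SE 0.15, edgeR FDR = 0.159). Nr4a1, an orphan nuclear receptor of the immediate-early class, was at 33.0, 33.8 and 57.7 CPM in vehicle and at 19.3, 12.5 and 19.6 CPM with CBD (log2 fold change −1.30, SE 0.31, edgeR FDR = 0.159). Dpysl2, a protein of axon growth, had a log2 fold change of −0.77 (SE 0.19), and Ppp2cb, a catalytic subunit of protein phosphatase 2A, one of −1.91 (SE 0.43). Of these 20 genes, 16 were thus higher and 4 lower with CBD, and a further gene in this range has no symbol. By DESeq2 with the same adjustment, 48 genes (0.408% of 11779) passed, 30 higher and 18 lower, and all 9 genes called by edgeR were among them.

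The gene lists, which were chosen with earlier results of these data known, are described by their counts and their medians. The counts at unadjusted p below 0.05, here and in the next paragraphs, stand beside 4.29% higher and 3.5% lower over all genes tested. Counts of positive and negative values stand beside 5649 positive and 6363 negative over the 12012 genes tested. Of 23 metalloproteinases, related proteases and Timps, 17 were tested: 2 rose, and 7 were higher and 0 lower at unadjusted p below 0.05, with a median log2 fold change of 0.44 against −0.02 over all genes. Their summed level was 4602 to 5219 CPM in vehicle and 5880 to 6302 CPM with CBD. Of 33 matrix glycoproteins tested, Mgp rose, and 8 were higher and 2 lower at unadjusted p below 0.05 (median 0.22). Thbs2, a thrombospondin, was at 104, 109.8 and 109.8 CPM in vehicle and at 134, 163 and 173 CPM with CBD (log2 fold change 0.54, SE 0.14, edgeR FDR = 0.212), and periostin (Postn) at 92.8 and 146 CPM in the means (0.65, SE 0.18, edgeR FDR = 0.249). Ccn2, a matricellular target of YAP, lay the other way (log2 fold change −0.86, SE 0.28, edgeR FDR = 0.384). The 19 collagen chains had a median of 0.03, with 2 higher and 1 lower at unadjusted p below 0.05.

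Among 33 AP-1 and immediate-early genes tested, Fosb fell, and 11 were lower and 1 higher at unadjusted p below 0.05, with a median log2 fold change of −0.36 and 28 of the 33 values negative. The summed level was 3346 to 4110 CPM in vehicle and 2770 to 3134 CPM with CBD. Jun, the partner of Fos proteins in AP-1, was at 236, 217 and 183 CPM in vehicle and at 152, 157 and 123 CPM with CBD (log2 fold change −0.56, SE 0.14, edgeR FDR = 0.165). Plk2, an immediate-early kinase that is also a p53 target, was at 47.9, 45.9 and 49.1 CPM in vehicle and at 23.3, 36.5 and 23.3 CPM with CBD (−0.79, SE 0.23, edgeR FDR = 0.312). The 16 MAPK feedback genes had a median of −0.29, with 1 lower at unadjusted p below 0.05. That gene was Dusp1, a phosphatase of MAP kinases, at 111, 84.4 and 141 CPM in vehicle and at 48.5, 60.1 and 78.6 CPM with CBD (−0.85, SE 0.24, edgeR FDR = 0.257).

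Of 34 genes of the integrated stress response, Ppp1r15a fell, and 13 were lower and 0 higher at unadjusted p below 0.05. The median was −0.34 and 32 of the 34 values were negative, with a summed level of 3765 to 4226 CPM in vehicle and 3244 to 3361 CPM with CBD. Slc7a11, the cystine transporter, was at 14.3, 28.5 and 13.7 CPM in vehicle and at 8.52, 8.48 and 5.59 CPM with CBD (log2 fold change −1.31, SE 0.36, edgeR FDR = 0.257). Gdf15, a stress hormone that is also counted among p53 targets, was at 25.3, 27.4 and 16.2 CPM in vehicle and at 9.63, 8.85 and 9.32 CPM with CBD (−1.29, SE 0.36, edgeR FDR = 0.257). In the list of 28 p53 targets tested, 0 genes passed the edgeR FDR threshold, 2 passed by DESeq2, and 10 were lower and 1 higher at unadjusted p below 0.05 (median −0.32). The cell cycle inhibitor Cdkn1a was at 633, 631 and 573 CPM in vehicle and at 473, 454 and 374 CPM with CBD (−0.50, SE 0.13, edgeR FDR = 0.165). Bbc3, which encodes the pro-apoptotic protein PUMA, was at 55.3 and 33.7 CPM in the means (−0.72, SE 0.18, edgeR FDR = 0.176). The summed level of the p53 list was 1510 to 1547 CPM in vehicle and 1131 to 1251 CPM with CBD.

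Among 28 mitosis genes, Cenpe rose, and 4 were higher and 0 lower at unadjusted p below 0.05 (median 0.07). The condensin subunits Smc4 (log2 fold change 0.50, SE 0.14) and Smc2 (0.43, SE 0.14) and the kinesin Kif20b (0.53, SE 0.25) were the others, with edgeR FDRs of 0.258 to 0.626. Of 34 chromatin and nuclear scaffold genes, 4 were higher and 1 lower at unadjusted p below 0.05, and 27 values were positive (median 0.09). They included Atrx, a chromatin remodeller (133 and 213 CPM, 0.68, SE 0.17, edgeR FDR = 0.169), and Phip (93.2 and 142 CPM, 0.61, SE 0.16, edgeR FDR = 0.226). Rock1, a kinase of actin contraction, was at 256, 271 and 264 CPM in vehicle and at 375, 395 and 374 CPM with CBD (0.53, SE 0.13, edgeR FDR = 0.165). In the list of 13 Notch, Hes and Id genes, Hes1 was the only one at unadjusted p below 0.05 in either direction, and the median was −0.13.

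**Figure D3:**
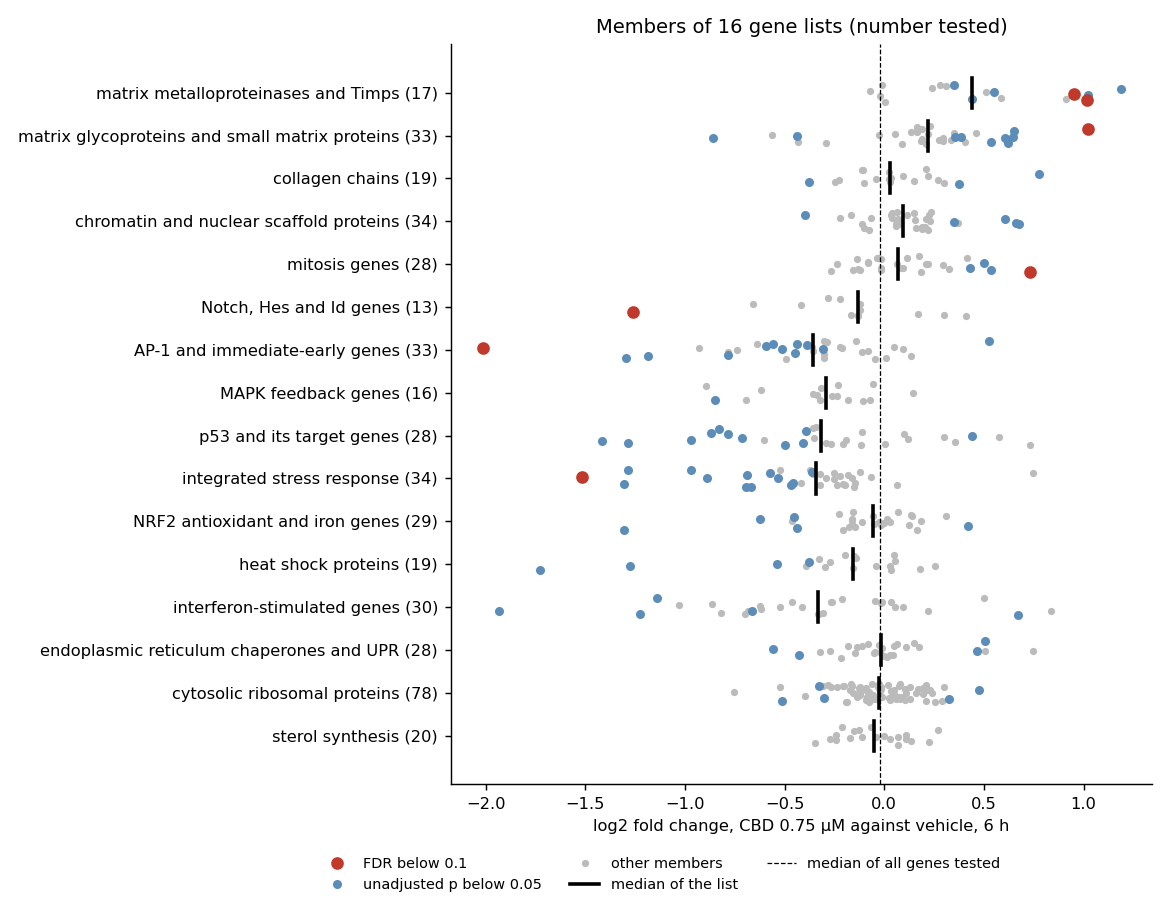
Log2 fold change of CBD 0.75 µM against vehicle at 6 h (x axis) of the tested members of 16 gene lists (y axis, number tested in brackets), with the list median as a black bar and the median of all genes tested as a broken line. The medians of the metalloproteinases (0.44) and of the AP-1 (−0.36) and stress response (−0.34) lists lie on opposite sides of that line, and most members are grey, with p of 0.05 or more.

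Among 12 genes of the Hippo pathway, 3 were lower at unadjusted p below 0.05 (median −0.22), and among 19 heat shock proteins 4 were lower (median −0.16). Of these 4, Hspa1a and Hspa1b were high in vehicle library A3 alone and had log2 fold changes of 1.02 and 0.60 without it, and the others were the co-chaperones Dnajb1 (−0.54, and −0.50 without A3) and Bag3 (−0.38, and −0.34). The 24 hypoxia-inducible genes (median −0.15) had 2 higher and 3 lower, the 29 NRF2 genes (−0.05) 1 higher and 4 lower, and the 18 long non-coding RNAs (0.02) 4 in each direction.

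Lists close to the median of all genes were the 78 cytosolic ribosomal proteins (−0.03, 2 higher and 3 lower at unadjusted p below 0.05), the 52 nuclear subunits of the respiratory chain (0.02, 1 and 0), the 27 DNA replication genes (0.02, 0 and 0), the 20 sterol synthesis genes (−0.05, 0 and 0) and the 28 endoplasmic reticulum chaperones (−0.02, 2 and 2). Of 21 proposed targets of CBD other than the CB1 receptor, 5 passed the filter on low counts and none was at p below 0.05. They included the channel Trpv4 (4.79 and 6.79 CPM) and the mitochondrial porin Vdac1 (238 and 214 CPM). Of 11 endocannabinoid genes, 7 were tested and 2 were higher at unadjusted p below 0.05. Fabp5, a carrier of anandamide, was at 23.7, 24.8 and 50.8 CPM in vehicle and at 52.9, 52.0 and 56.8 CPM with CBD (log2 fold change 0.65, SE 0.25, edgeR FDR = 0.499). Of 19 feeding peptides and receptors, 6 were tested. Mc5r, a melanocortin receptor, was at 25.7 and 48.2 CPM (0.96, SE 0.29, edgeR FDR = 0.329) with overlapping groups, and Socs3, the feedback inhibitor of leptin signalling, at 36.4 and 22.2 CPM (−0.73, SE 0.32, edgeR FDR = 0.602).

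Several of these comparisons turned on vehicle library A3. Hspa1a, an inducible heat shock protein, was at 3.30 and 1.58 CPM in A1 and A2 and at 41.2 CPM in A3, against 5.18, 5.16 and 4.66 CPM with CBD. Hspa1b, its close copy, was at 11, 11.6 and 95.3 CPM in vehicle and at 12.2, 15.1 and 23.9 CPM with CBD, and the chemokine Ccl2 at 33.0, 26.9 and 224 CPM in vehicle and 51.1, 64.2 and 24.5 CPM with CBD. At these genes A3 alone was high. The interferon-stimulated genes Oasl1 (49.6, 45.9 and 8.51 CPM in vehicle against 12.6, 10.3 and 3.73 CPM) and Mndal (131, 177 and 42.6 CPM against 55.5, 50.9 and 50.0 CPM) showed A3 among or below the CBD libraries. The same held for Atf5, a transcription factor of the stress response, at 397, 444 and 204 CPM in vehicle and 254, 253 and 209.9 CPM with CBD. The list of 30 interferon-stimulated genes tested had a median of −0.33, with 4 lower and 1 higher at unadjusted p below 0.05, and its summed level was 1025 to 1551 CPM in vehicle and 1109 to 1255 CPM with CBD.

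**Figure D4:**
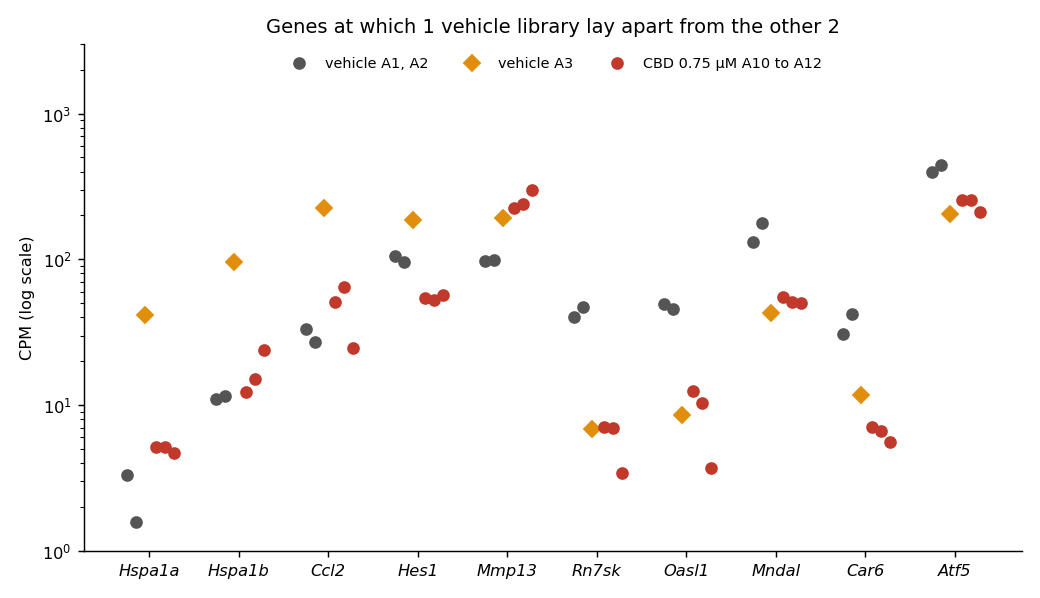
Level in CPM (y axis, log scale) of 10 genes in vehicle libraries A1 and A2 (grey), vehicle library A3 (orange) and the 3 CBD 0.75 µM libraries (red). A3 is above all others at Hspa1a, Hspa1b, Ccl2 and Hes1, and is near or among the CBD libraries at Rn7sk, Oasl1, Mndal and Atf5.

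When A3 was left out, 173 genes (1.4% of 12324) passed, 66 higher (0.536%) and 107 lower (0.868%), among them all of the 9 genes above. The stress response list then had 8 members lower, including Atf5 (log2 fold change −0.82, edgeR FDR = 0.00701). The AP-1 list had 3 lower, among them Jun (−0.66, edgeR FDR = 0.0248), and the p53 list had 3 lower, among them Cdkn1a (−0.55, edgeR FDR = 0.0427). The metalloproteinase list had 3 higher, with Timp1 (0.61, edgeR FDR = 0.0286) beside Mmp3 and Mmp13, and the matrix glycoproteins 3 higher, with Tnc (0.71, edgeR FDR = 0.0161). When CBD library A12 was left out instead, 1 gene passed, and this was Mmp3 (edgeR FDR = 0.0357), while the FDRs of the other 8 genes were 0.51 to 0.583.

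Set beside the other doses at 6 h, which share the 3 vehicle libraries, the 9 genes had the following values. These genes were chosen by their difference from vehicle at 0.75 µM. That choice alone favours the 0.75 µM mean lying farthest from vehicle. The order of the doses below is thus a description and not a test. Mmp3 was at 863 CPM at 0.325 µM, 1045 CPM at 0.75 µM, 957 CPM at 1.5 µM and 803 CPM at 3 µM, against 515 CPM in vehicle. Ppp1r15a was at 11.2, 11.9, 12.6 and 10.2 CPM at the 4 doses in rising order, against 33.7 CPM. Its level thus lay in a narrow range over the doses. Fosb was at 11.8 CPM at 0.325 µM, 6.13 CPM at 0.75 µM, 11.4 CPM at 1.5 µM and 12.0 CPM at 3 µM, and Cenpe at 81.2, 107, 66.8 and 73.0 CPM, against 64.7 CPM in vehicle. At these 2 genes the mean of the 0.75 µM group lay farthest from vehicle. The 0.75 µM mean was also the farthest from vehicle for Mgp (1483 CPM in vehicle, then 1986, 3010.1, 2153 and 2515 CPM with rising dose) and Mmp13 (129.5, 164, 254, 171 and 214 CPM), while the order of the other doses differed among these 4 genes. For Mgp this rests on library A12, since A10 and A11 (2216 and 2460.0 CPM) lay below the mean of 3 µM. Hes1 was at 129 CPM in vehicle and 50.7, 54.5, 61.8 and 64.8 CPM with rising dose, Car6 at 28.3 CPM and 8.62, 6.42, 8.56 and 9.67 CPM, and Rn7sk at 31.3 CPM and 6.09, 5.82, 4.09 and 4.27 CPM. For Hes1, Rn7sk and Ppp1r15a another dose lay farther from vehicle, while for Mmp3 and Car6 the 0.75 µM mean was the farthest. Tested directly against the mean of the other 3 doses, 0 of 12012 genes passed by edgeR (579 or 4.82% at unadjusted p below 0.05), and DESeq2 called 5. The difference was 0.55 (SE 0.12) for Cenpe (edgeR FDR = 0.197), −0.95 (SE 0.30) for Fosb (edgeR FDR = 0.86), 0.45 (SE 0.15) for Mgp, 0.49 (SE 0.16) for Mmp13 and 0.07 (SE 0.24) for Ppp1r15a on the log2 scale. The smallest p belonged to A630089N07Rik, at 25.6 CPM (22.5 to 28.5) at 0.75 µM and at 9.43 CPM in vehicle, 10.4 CPM at 0.325 µM, 10.1 CPM at 1.5 µM and 9.72 CPM at 3 µM (log2 difference 1.34, SE 0.25, edgeR FDR = 0.148). Hmgn5, a nucleosome-binding protein (1.07, SE 0.21), Ppig (0.59, SE 0.13) and Hmox1, the heme oxygenase induced by NRF2 (0.97, SE 0.20), followed with an edgeR FDR of 0.197. Hmox1 was at 88.8 CPM in vehicle and at 32.6, 35.4 and 30.4 CPM at 0.325, 1.5 and 3 µM. At 0.75 µM it was at 77.4 and 81.5 CPM in A10 and A11 and at 34.5 CPM in A12. Its difference from the other doses thus rests on A10 and A11. Against 0.325, 1.5 and 3 µM taken singly, 0 genes passed each time, with 547 (4.55%), 471 (3.92%) and 538 (4.48%) at unadjusted p below 0.05. The list medians at 0.325, 1.5 and 3 µM were −0.53, −0.46 and −0.43 for AP-1 (−0.36 at 0.75 µM). They were −0.56, −0.57 and −0.36 for MAPK feedback (−0.29) and −0.51, −0.43 and −0.53 for interferon (−0.33). At each of these lists the 0.75 µM median was the smallest in size. Medians were 0.32, 0.49 and 0.53 for the metalloproteinases (0.44) and −0.32, −0.41 and −0.33 for the stress response (−0.34). The p53 list had −0.33, −0.24 and −0.11 (−0.32).

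**Figure D5:**
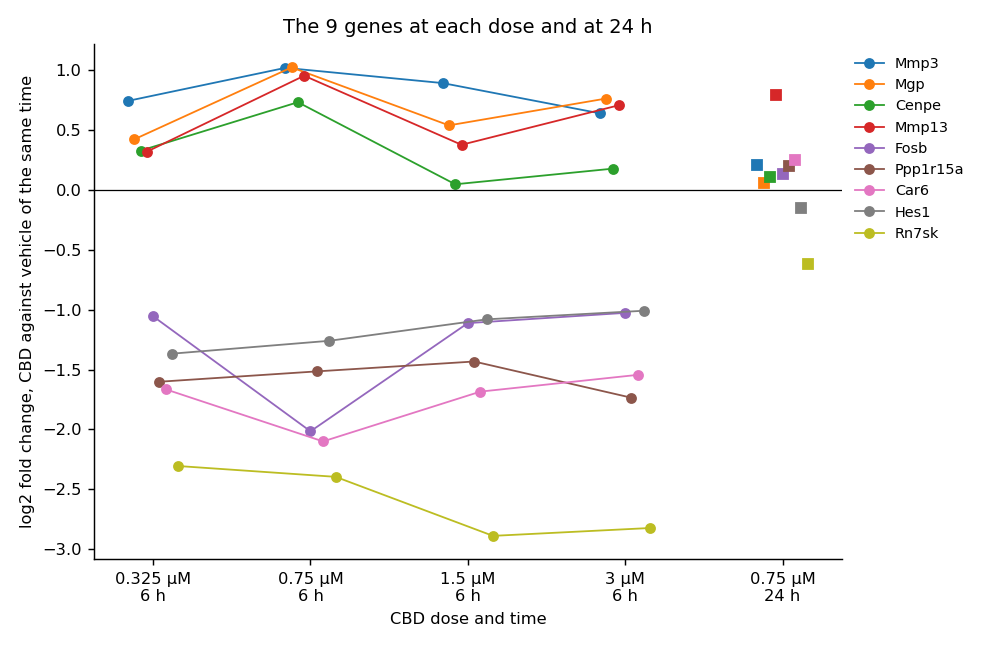
Log2 fold change against vehicle of the same time (y axis) of the 9 genes at the 4 CBD doses at 6 h (circles) and at 0.75 µM at 24 h (squares); the 4 doses share the vehicle libraries of 6 h. All 9 keep their sign over the doses at 6 h, and at 24 h the values lie between −0.62 and 0.79.

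After 24 h at the same dose, the 9 genes had log2 fold changes from −0.62 (Rn7sk) to 0.79 (Mmp13) and none passed in that comparison (edgeR FDR 0.259 to 0.993). The difference between the times was tested with all 30 libraries, and 2 of 12790 genes (0.0156%) passed the FDR threshold, none of them among the 9, while 703 (5.5%) were at unadjusted p below 0.05. Elp6, a subunit of the Elongator complex that modifies transfer RNAs, had a log2 fold change of −0.44 (SE 0.21) at 6 h and 1.36 (SE 0.23) at 24 h. In that fit it was at 181, 169 and 125 CPM in vehicle and 117, 122 and 108 CPM with CBD at 6 h, and at 27.5, 27.5 and 33.7 CPM in vehicle and 73.2, 91.8 and 62.8 CPM with CBD at 24 h. The vehicle level itself thus differed between the times. Dusp1 had −0.85 (SE 0.23) at 6 h and 0.86 (SE 0.23) at 24 h. It passed at neither time alone (edgeR FDR = 0.257 at 6 h in the fit of that time, and 0.398 at 24 h). In vehicle it was at 112, 85.4 and 142 CPM at 6 h and at 48.2, 40.4 and 40.4 CPM at 24 h. With CBD it was at 49.2, 60.8 and 79.1 CPM and then at 89.9, 75.1 and 69.6 CPM. Its vehicle level thus differed between the times too. The largest differences among the 9 genes were those of Car6 (2.35, SE 0.67, edgeR FDR = 0.443) and Fosb (2.14, SE 0.54, edgeR FDR = 0.338) on the log2 scale.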

How the data were processed

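The data are 3′ mRNA-Seq libraries of mHypoA-2/12 cells. The authors trimmed reads with Flexbar, mapped them to GRCm39 with STAR 2.7.5c and counted them per Ensembl gene with HTSeq 1.99.2; what was deposited for each library is a table of raw counts without normalization, and its strand setting is not given in the sources used here. Reads with several alignments were not counted, so genes with close copies are incomplete. Groups were taken from the treatment labels.

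The tests used edgeR 4.0.16 (filterByExpr, TMM, quasi-likelihood F-test) under R 4.3.3, on the 15 libraries of 6 h, or on all 30 for the difference between times, and called a gene at an FDR below 0.1, with p-values adjusted after Benjamini-Hochberg across every gene in the fit. DESeq2 1.42.0 was an alternative. Of 56941 gene IDs, 51948 were named from GENCODE M21 (GRCm38) and 2 by the study; promoter sequences are RefSeq on GRCm38.p6. Library measures were compared by exact two-sided permutation. The other alternatives were RLE normalization, no filter, at least 10 reads in every library, no mitochondrial genes, only the groups compared, a covariate for reads that fell outside genes, and each library left out. Calls by list without A3 were added after the values were seen. The steps were tested on simulated data.

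The genes and lists were chosen with earlier results of these data known. Named are all called genes, the next 20 by p with groups that do not overlap, up to 4 members per list with the smallest p (of 42 lists), cell type markers, the 5 smallest p against the other doses and between times, and up to 10 further genes called by DESeq2 or without A3.

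Levels cover depths of 1839621 to 3574833 reads on genes, where 3 reads are 1.63 to 0.839 CPM; this floor covers counting error only.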

Additional observations from a re-analysis of the deposited data

Results flagged for a closer look

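At 2 genes the change with CBD 0.75 µM differed between 6 h and 24 h by edgeR's quasi-likelihood test of the difference itself. The change of Elp6 at 24 h minus that at 6 h was 1.81 on the log2 scale (SE 0.31, edgeR FDR = 0.0125), and that of Dusp1 was 1.71 (SE 0.32, edgeR FDR = 0.0359). Every CBD library lay above the vehicle libraries at 24 h at both genes, and below them at 6 h. The vehicle levels of both genes were lower at 24 h than at 6 h.

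At 4 further named genes the CBD libraries lay on 1 side of the vehicle libraries at 6 h and on the other at 24 h, and the difference did not pass the edgeR FDR threshold. It was −2.26 (FDR = 0.351) for Rex1bd, −0.81 (FDR = 0.338) for Thbs2, −0.88 (FDR = 0.313) for the non-coding RNA Xist and −2.81 (FDR = 0.313) for Gm7265. Only named genes whose groups did not overlap at 6 h were searched, and the share over all genes was not counted. At 6 h alone, the groups did not overlap at 11.7% of all genes tested. Xist and Gm7265 had been named for their small p in the difference between times, which favours this pattern. The cause of these differences was not tested.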

How the results depend on the processing

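The 9 genes kept their direction under every alternative that tested them, and Mmp3 alone was called in all 13. Against vehicle, 48 genes were called by DESeq2, 101 without a filter on low counts, 2 with only the groups compared and 119 with a covariate for reads that fell outside genes. Leaving out 1 library gave 1 (without A12) to 173 (without A3) genes, with 4 without A2 or A10 and 3 without A11. Against the other doses the counts were 5, 16, 6 and 14 in the same order of alternatives, and 0 to 6 with 1 library left out (6 without A9, 3 without A12, 1 without A14 or A15). For the difference between times, DESeq2 called 10 and the analysis without a filter 42, and leaving out 1 library gave 1 to 11 (11 without A3, 4 without A1, 1 without A10, A11, A22, A29 or A30). The cause of these shifts was not tested. Only a part of the named genes was followed through the alternatives, mostly those with a fold change in the text. Of 951 pairs of such a gene and an alternative, 21 had the other sign, none of them called. With 1 library left out, the log2 fold change ran from −2.22 to 1.02 for Hspa1a, −1.68 to 0.60 for Hspa1b and −1.50 to 0.63 for Ccl2, each positive without A3 alone. The other 18 were those of 4 cell type markers, for which no change was called. Tmem119 had 0.0087 without a filter, 0.0074 with the covariate and −0.22 (without A3) to 0.12 (without A2) with 1 library left out. Cnp had −0.0015 by DESeq2 and with RLE, −0.0044 with only the groups compared and −0.27 to 0.28 with 1 library left out. Gja1 had 0.0071 without a filter, 0.063 with the covariate and −0.11 to 0.21 with 1 library left out, and Csf1r −0.50 to 0.030. The list medians kept their sign for the metalloproteinases (0.37 to 0.53), matrix glycoproteins (0.15 to 0.28), AP-1 genes (−0.43 to −0.23), stress response (−0.44 to −0.29) and p53 targets (−0.36 to −0.19), while 54 of 519 medians over all lists and alternatives changed sign.

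No paired analysis was possible because the labels give no replicate numbers that groups share. Libraries of 1839621 to 3574833 reads limit what can be seen at genes of few reads.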
